A study of Mus musculus with 3 samples.

Results

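The amino acid transporter families of SB28 cells were taken as all genes whose listed symbol belongs to the solute carrier families Slc1, Slc3, Slc6, Slc7, Slc36, Slc38 or Slc43. The rule used names alone and found 59 of the 24421 genes listed. They comprised 7 genes of Slc1, 2 of Slc3, 17 of Slc6, 15 of Slc7, 4 of Slc36, 11 of Slc38 and 3 of Slc43. Symbols with a further letter, such as the proline transporter genes Slc6a20a and Slc6a20b, fell outside it; both had 0 counts. SB28 is a mouse glioblastoma line on the C57BL/6 background, started from a brain tumour made by transposon transfer of oncogenes. RNA-seq was made from 3 libraries of this 1 group, labelled as brain, with no control line, treatment, time or culture condition named. Nothing in the labels says that the replicates were separate cultures, so each SD is the spread between these libraries, which may be technical. Markers of differentiated brain cells were low or absent. Of 4 astrocyte markers, Gfap and Aqp4 had 0 counts, while Aldh1l1 (5.58 ± 0.852 CPM) and S100b (4.26 ± 1.22 CPM) were detected. None of 4 neuron, 4 oligodendrocyte and 5 microglia markers reached 1 CPM in all libraries, with Syt1 and Stmn2 split between libraries. Of 4 endothelial markers Kdr was detected (1.61 ± 0.893 CPM), Tek was split and Cldn5 had 0 counts. The line's own markers Vim (5404 ± 100.1 CPM), Cd44 (870.1 ± 75.05 CPM) and Nes (427 ± 20.2 CPM) were abundant (mean ± SD, n = 3).

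Cells take up amino acids through carriers that differ in substrate, in the ions that drive them and in the membrane they sit in. Members of Slc7 are either cationic amino acid carriers that work alone or light chains, which reach the cell surface bound to a heavy chain glycoprotein encoded by Slc3a2 or Slc3a1. Slc1 holds the glutamate transporters of the brain and the neutral amino acid exchangers. Slc38 carries glutamine and small neutral amino acids, Slc36 exports amino acids with protons, often from lysosomes, and Slc43 includes carriers of branched and aromatic amino acids. Slc6 carries neurotransmitters and related small molecules such as taurine, creatine, glycine and GABA. Several of these genes are well known targets of ATF4, a transcription factor of the response to amino acid shortage.

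Counts assigned to genes came to 36019009 in replicate 1, 28990128 in replicate 2 and 32632858 in replicate 3. Levels are counts scaled to a library total of 1000000 (CPM), and where genes are compared with each other they are CPM per kb of exon. Detection asked for at least 1 CPM in each of the 3 libraries. A library with 0 counts of a gene allows up to 0.0833, 0.103 or 0.0919 CPM in replicates 1, 2 and 3, the level of 3 counts, which covers counting error only. Over all genes, replicates 1 and 2 differed beyond counting noise in 252 of 12746 genes, whereas replicate 3 differed from replicate 1 in 8205 of 12802 and from replicate 2 in 7966 of 12685. Where 3 values are given for a gene, they follow the order of replicates 1, 2 and 3.

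Of the 59 transporter genes, 26 (44.1%) were detected, beside 46.6% of all genes listed. One more, Slc7a7, was split between libraries, 32 lay below 1 CPM in every library, and 12 of these had 0 counts. Together the 59 genes held 1972, 1964 and 2310.4 CPM, or 0.208% of the counts on average. Expression was concentrated in few genes. The 3 with most counts, Slc6a6, Slc38a2 and Slc7a5, held 44.0% ± 1.15 of the family counts, and the first 10 held 88.1% ± 0.602 (SD, n = 3). In RNA from bulk cultures, fewer cells with a transcript and less of it per cell cannot be told apart.

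**Figure D1:**
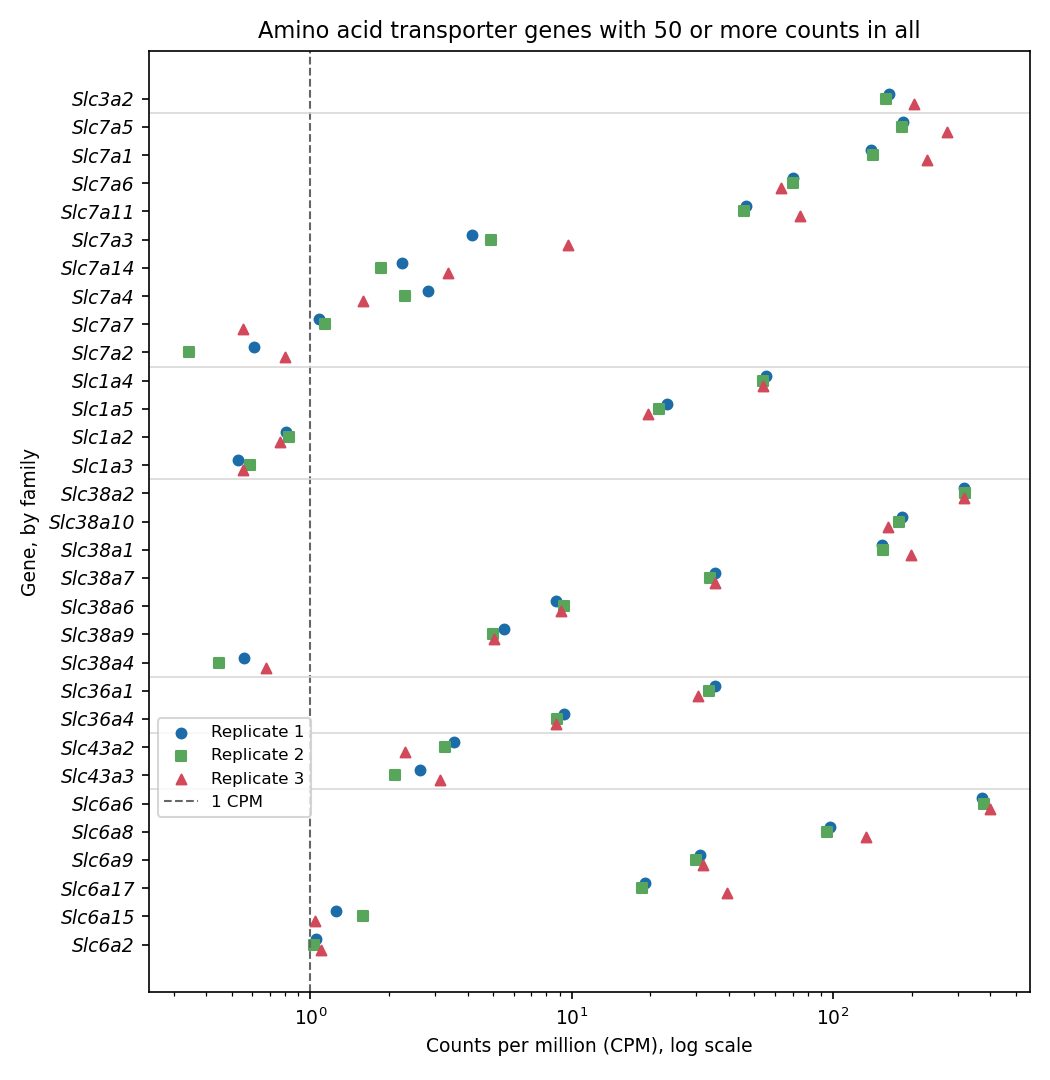
Level of each transporter gene with at least 50 counts over the 3 libraries, in CPM on a log scale, with 1 symbol per library and genes grouped by family. The 26 detected genes lie right of the dashed line at 1 CPM, and replicate 3 stands to the right of replicates 1 and 2 for Slc3a2, Slc7a5, Slc7a1, Slc7a11, Slc7a3, Slc38a1, Slc6a8 and Slc6a17.

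The heavy chain gene Slc3a2, encoding CD98hc (4F2hc), was among the most abundant members. It lies on chromosome 19 at 8706882 to 8723369 (GRCm38, minus strand) and reached 164, 159.5 and 204 CPM. The other heavy chain gene, Slc3a1, encodes rBAT, known from cystine uptake in kidney, and had 4, 2 and 7 counts. Per base of exon Slc3a2 exceeded Slc3a1 by 9.70 ± 0.53 on the log2 scale, a ratio of 831 (range over libraries 570.4 to 1191). The size of this ratio depends on the few Slc3a1 counts, and it was 400.3 with a pseudocount of 5. Exons of Slc3a1 also share 601 bases with Prepl on the opposite strand (73.7 CPM), so reads of the pair cannot be told apart without a strand setting.

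Among the 6 light chain genes that pair with Slc3a2, Slc7a5 dominated. Slc7a5 encodes LAT1, the exchanger of leucine and other large neutral amino acids, and lies on chromosome 8 at 121881150 to 121907694 (GRCm38, minus strand). It stood at 184, 184 and 273 CPM, and per base it took 72.3%, 72.4% and 79.2% of the light chain signal. Slc7a6, encoding the y+LAT2 exchanger of arginine and glutamine, followed with 70.4, 70.02 and 63.2 CPM and 22.4%, 22.3% and 14.9% of the signal. Replicates 1 and 2 were alike in these shares, and replicate 3 had more Slc7a5 and less Slc7a6. Slc7a11, encoding xCT, which imports cystine in exchange for glutamate and so feeds glutathione synthesis, gave 46.5, 45.6 and 74.8 CPM. Because its exons are long, this was 4.86%, 4.77% and 5.77% of the light chain signal per base.

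The other light chain genes of Slc3a2 were near or below the limit. Slc7a7, encoding y+LAT1, had 39, 33 and 18 counts (1.08, 1.14 and 0.552 CPM) and shares 232 exon bases with the more abundant Oxa1l (41.3 CPM). Slc7a8, encoding LAT2, had 1, 0 and 2 counts, and Slc7a10, encoding the small neutral amino acid exchanger Asc-1 of brain, had 0. Per base, Slc7a5 lay 3.82-fold above Slc7a6 (range 3.23 to 5.32). Against Slc7a8 the pooled ratio was 9396 (exact 95% interval 3215 to 45567, counting error only). Slc7a5 exceeded Slc7a11 by 14.6-fold per base (range 13.7 to 15.2), but by 3.88-fold without length correction. The heavy chain Slc3a2 and the light chain Slc7a5 were nearly level. Their log2 ratio was −0.19 ± 0.14, which did not exceed the spread with all 3 libraries. With the longest transcript as length it was 0.06. The light chain genes Slc7a9 and Slc7a13, which belong with Slc3a1 or lack a settled partner, and the related Slc7a12 and Slc7a15 had 0 counts, except for 1 count of Slc7a13.

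**Figure D2:**
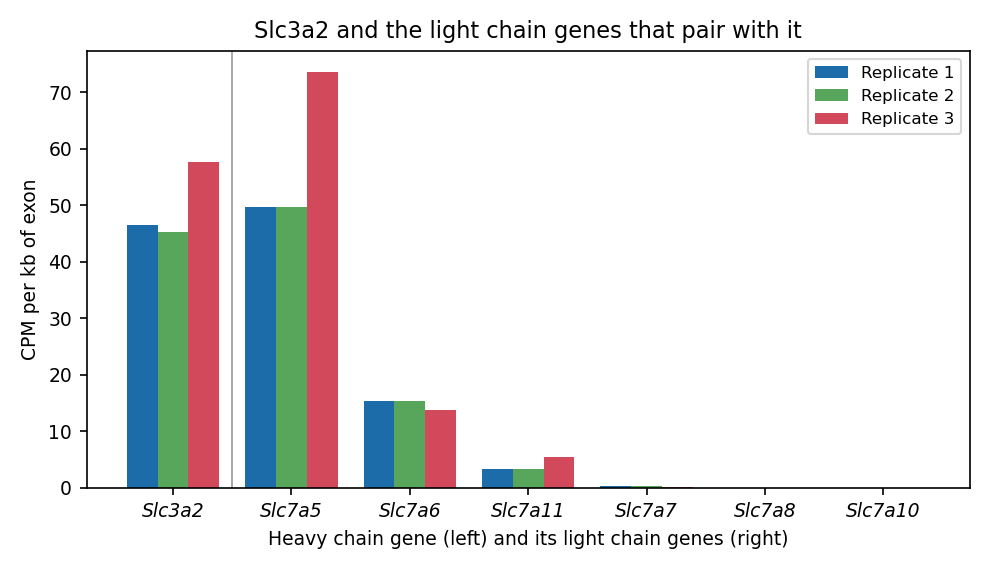
Level of the heavy chain gene Slc3a2 and its 6 light chain genes in CPM per kb of exon, with 1 bar per library. Slc3a2 reached 46.4, 45.2 and 57.7 and Slc7a5 49.7, 49.6 and 73.6, while Slc7a8 and Slc7a10 are too low to be seen.

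The cationic carriers were led by Slc7a1. This gene encodes CAT1, the widespread importer of arginine and lysine, lies on chromosome 5 at 148327410 to 148399904 (GRCm38, minus strand) and reached 139, 142 and 228 CPM. It held 85.4% ± 0.116 of the signal per base of the 5 genes of this group (SD, n = 3). Slc7a3, encoding CAT3, which is best known from brain, was detected at 4.16, 4.90 and 9.71 CPM. Slc7a2, encoding CAT2, which supplies arginine in activated macrophages and in liver, stayed below 1 CPM with 22, 10 and 26 counts. The relatives Slc7a4 (2.83, 2.31 and 1.59 CPM) and Slc7a14 (2.25, 1.86 and 3.37 CPM) were low. Replicate 3 was the highest library for Slc7a1, Slc7a3 and Slc7a14 and the lowest for Slc7a4. Slc7a1 lay 230.3-fold above Slc7a2 (range 177 to 311) and 9.28-fold above Slc7a3 (range 7.69 to 10.95) per base. Without length correction the second ratio was 28.3.

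None of the 5 glutamate transporter genes of Slc1 was detected, beside 46.6% of all genes listed. Slc1a2 encodes GLT-1 and Slc1a3 encodes GLAST, the carriers by which astrocytes clear glutamate from synapses. Slc1a2 had 29, 24 and 25 counts (0.805, 0.828 and 0.766 CPM), and Slc1a3 had 19, 17 and 18 (0.527, 0.586 and 0.552 CPM). The libraries lay close together for both genes. Slc1a1, the glutamate carrier of neurons, had 4 counts in all, Slc1a6 had 4 and Slc1a7 had 5. Slc1a3 and Slc1a2 were level per base, at a log2 ratio of 0.11 ± 0.07, which did not exceed the spread. With the longest transcript it was 0.87 and exceeded the spread. Slc1a3 exceeded Slc1a1 by a pooled ratio of 13.1 (exact 95% interval 4.82 to 49.6, counting error only). This ratio rests on 4 counts, and the call was lost with a pseudocount of 0.1.

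Both neutral amino acid exchangers of Slc1 were detected, with Slc1a4 above Slc1a5. Slc1a4 encodes ASCT1, an exchanger of alanine, serine and cysteine, and gave 55.2, 53.7 and 54.0 CPM. Slc1a5 encodes ASCT2, the glutamine exchanger often studied in tumour cells, and gave 23.1, 21.6 and 19.5 CPM. All 3 values of Slc1a4 lay above those of Slc1a5, and per base the ratio was 2.702 (range 2.54 to 2.94), larger than the spread.

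In Slc38, 6 of 11 genes (54.5%) were detected, beside 46.6% of all genes listed. System A, the sodium-driven uptake of small neutral amino acids, was prominent. Slc38a2 encodes SNAT2, which is induced when amino acids run short. It lies on chromosome 15 at 96687392 to 96699730 (GRCm38, minus strand) and stood at 316, 319.7 and 316 CPM, nearly level in the 3 libraries. Slc38a1, encoding the glutamine carrier SNAT1, gave 153, 155 and 199 CPM, higher in replicate 3. Slc38a4, the system A gene of liver, had 20, 13 and 22 counts. Per base Slc38a2 exceeded Slc38a1 by 3.69-fold (range 3.10 to 4.03). The ratio was 2.25 with the longest transcript and 1.89 without length correction, since annotated exons of Slc38a1 span 17236 bases and its longest transcript 7266. Slc38a2 lay 269-fold above Slc38a4 (range 221 to 331). The system N genes, known from glutamine release by astrocytes and liver, were almost silent, with 5 counts of Slc38a3 and 0 of Slc38a5. Slc38a1 lay 1.90-fold above Slc1a5 per base. This ratio was 3.03 where the longest transcript gave the length, and 7.85 uncorrected for length.

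The remaining Slc38 genes and the Slc36 genes include carriers of the lysosome, and their levels differed widely. Slc38a7, which exports glutamine from lysosomes, gave 35.2, 33.9 and 35.2 CPM. Slc38a9, the arginine sensor that signals from lysosomes to mTORC1, gave 5.497, 5.002 and 5.03 CPM. Slc38a7 exceeded Slc38a9 by 27.05-fold per base (range 25.8 to 28.2), a ratio that came to 17.9 with longest transcripts and to 6.71 uncorrected for length. Slc36a1, encoding the proton-driven carrier PAT1 of lysosomes, gave 35.4, 33.7 and 30.6 CPM. It lay 4.297-fold above Slc36a4 (9.38, 8.76 and 8.73 CPM; range 4.06 to 4.46). Slc36a2 and Slc36a3 had 0 counts. Slc38a10 was abundant at 184, 179 and 162 CPM, Slc38a6 gave 8.69, 9.31 and 9.13 CPM, and Slc38a8 and Slc38a11 had 0 counts.

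The Slc43 genes were low. Slc43a2, encoding LAT4, a carrier of branched and aromatic amino acids, had 128, 95 and 75 counts (3.55, 3.28 and 2.298 CPM). Slc43a1, encoding LAT3, had 7, 3 and 2 counts. Slc43a3, which carries purine nucleobases rather than amino acids, gave 2.64, 2.104 and 3.13 CPM. Slc43a2 lay 13.8-fold above Slc43a1 per base (range 9.75 to 17.2), and 6.63-fold above it with a pseudocount of 5.

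In Slc6, 6 of 17 genes (35.3%) were detected, beside 46.6% of all genes listed. The taurine carrier gene Slc6a6 had more counts than any other of the 59, at 372, 379 and 398 CPM, and lies on chromosome 6 at 91684053 to 91759066 (GRCm38, plus strand). The creatine carrier gene Slc6a8 gave 97.1, 95.2 and 134 CPM. Slc6a6 lay 2.19-fold above Slc6a8 per base (range 1.83 to 2.45) and 3.56-fold without length correction. The glycine carrier gene Slc6a9, encoding GlyT1, gave 31.1, 29.8 and 31.8 CPM. Its exons share 1429 bases with Ccdc24 on the opposite strand (4.33 CPM). Slc6a5, encoding the neuronal glycine carrier GlyT2, had 0 counts, so that Slc6a9 was at least 1410.4-fold higher per base, with 3 counts over the group put in place of 0. Slc6a17, encoding a carrier of neutral amino acids on synaptic vesicles of neurons, was detected at 19.1, 18.6 and 39.2 CPM. Slc6a15, a neutral amino acid carrier of brain, gave 1.25, 1.59 and 1.04 CPM, and Slc6a2, the noradrenaline carrier, 1.055, 1.035 and 1.10 CPM. Both lay just above the limit of detection.

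Carriers of neurotransmitters were otherwise near 0. Slc6a11 and Slc6a13, which carry GABA, had 2 and 0 counts in all, and Slc6a12, which carries betaine and GABA, had 1. The dopamine carrier gene Slc6a3 had 18 counts and the serotonin carrier gene Slc6a4 had 5. The proline carrier gene Slc6a7 had 1. The epithelial neutral amino acid carrier genes Slc6a14 and Slc6a19 had 2 each, and Slc6a18 had 0.

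Ordered by level per base, the detected members ran from Slc7a5 (57.7 CPM per kb) through Slc3a2 (49.8), Slc6a6 (45.3), Slc38a2 (35.9), Slc38a10 (27.3) and Slc6a8 (20.9) to Slc6a2 (0.169) and Slc6a15 (0.167). Slc7a5 stood at the 93.3rd percentile of detected genes on this scale and Slc7a11 at the 32.4th. The place of Slc7a11 depends on length, since its annotated exons span 13922 bases and its longest transcript 9223. Without length correction its mean was 55.6 CPM, above the median of 35.9 CPM of all detected genes. Of the 25 steps between neighbours in this order, 10 exceeded the spread between libraries and 15 did not. Because the order was set by these same levels, the direction of each step was given beforehand. Slc7a5, Slc3a2 and Slc6a6 were neighbours that did not differ beyond their spread, while the steps from Slc6a6 to Slc38a2 and from Slc38a2 to Slc38a10 did. A ratio was said to exceed the spread when the log2 values of the 3 libraries shared a sign and their mean was over 2 SD from 0. By this rule 17 of 19 pairs fixed for comparison exceeded it, and the exceptions were Slc3a2 with Slc7a5 and Slc1a3 with Slc1a2. The exact two-sided sign-flip permutation p was 0.25 for each of the 19, also after Benjamini-Hochberg adjustment, and 3 libraries allow none smaller.

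**Figure D3:**
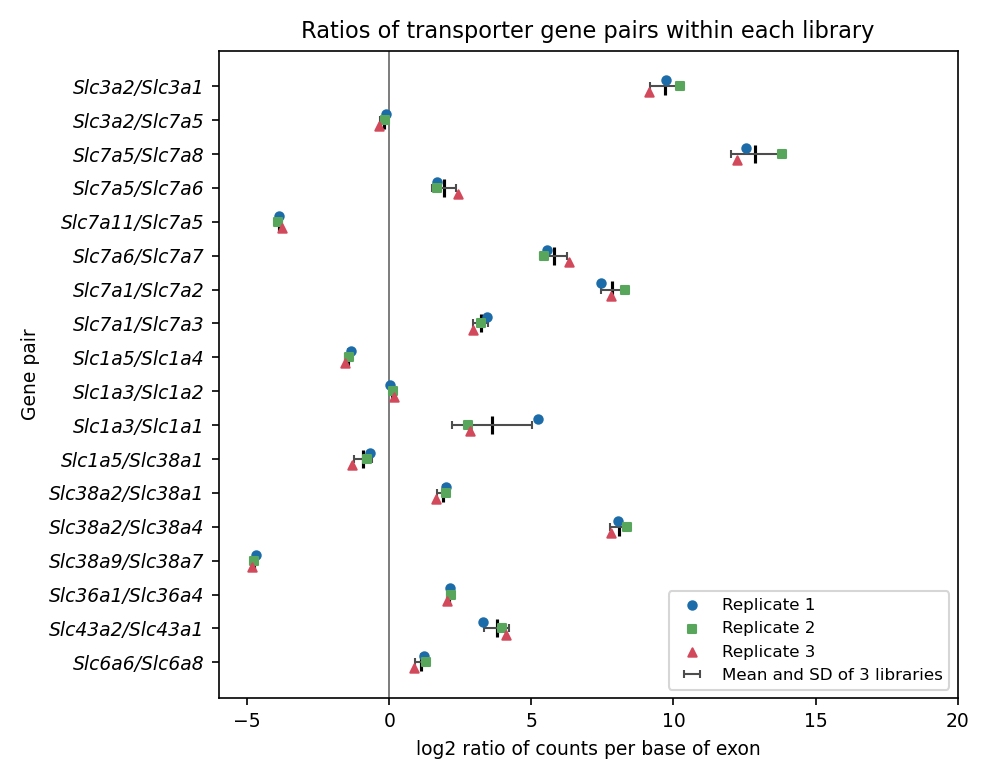
log2 ratio of counts per base of exon for 18 of the gene pairs, with 1 symbol per library and the mean with SD over the 3 libraries. Slc3a2 with Slc7a5 and Slc1a3 with Slc1a2 lie near 0, and the widest spread is that of Slc1a3 with Slc1a1, whose denominator had 4 counts.

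The libraries were then compared for each gene against counting noise, using a chi-square test on its 3 counts. Of the 31 transporter genes that averaged 10 counts or more, 17 (54.8%) varied between libraries, beside 65.7% of all 12737 genes tested. Of the 31, 10 varied with replicate 3 highest and 7 with replicate 3 lowest. Among all genes tested these shares were 33.1% and 31.5%. Deep counts let small differences pass, so a ratio of at least 1.5 between the highest and the lowest library was also asked for. This left 8 genes (25.8%), beside 18.3% of all genes tested. Of the 31, 5 (16.1%) varied by this size with replicate 3 highest, beside 7.4% of all genes tested, and 3 with replicate 3 lowest, beside 10.7%. Whether these shares differ was not tested. Without replicate 3, the chi-square test called 0 of 31, beside 2.01% of all genes tested, and 0 at an unadjusted p under 0.05, beside 12.5%. The test says nothing about conditions, and a technical origin of the difference of replicate 3 was not tested. Reads without a gene made up 6.54% of the reads of replicate 3 and 5.19% and 5.27% of those of replicates 1 and 2. Marker sums moved between libraries as well. Over the 3 libraries, the 4 astrocyte markers (Gfap and Aqp4 at 0) summed to 7.48 to 11.2 CPM. The 4 neuron markers (Rbfox3 at 0) summed to 1.41 to 2.39 and the 4 endothelial markers (Cldn5 at 0) to 2.104 to 3.19. The 4 oligodendrocyte markers (Mag at 0) summed to 0.981 to 1.42 and the 5 microglia markers (Aif1 at 0) to 0.241 to 0.674. Within the neuron sum, Syt1 had 43, 25 and 1 counts, whereas Stmn2 had 28, 16 and 39. The part of these markers in the differences was not tested.

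The 5 genes highest in replicate 3 by at least 1.5-fold were Slc7a3, Slc6a17, Slc7a14, Slc7a11 and Slc7a1, of which 4 belong to Slc7. Against the mean of replicates 1 and 2, replicate 3 was 2.15-fold higher for Slc7a3, 2.09-fold for Slc6a17, 1.65-fold for Slc7a14 and 1.63-fold for both Slc7a11 and Slc7a1. The chi-square test gave Benjamini-Hochberg adjusted p = 5.18e-217 for Slc7a1 and 4.97e-71 for Slc7a11. Slc7a5 lay just under the size asked for, at a ratio of 1.495 between highest and lowest library (chi-square test, adjusted p = 1.33e-178). Slc6a8 (1.42), Slc38a1 (1.302) and Slc3a2 (1.29) varied in the same direction by less. The 3 genes lowest in replicate 3 were Slc7a7, Slc7a4 and Slc43a2, all under 4 CPM, with ratios of 2.02, 1.76 and 1.53 between highest and lowest library. Slc7a7 was no longer called when genes of lower counts were tested too (chi-square test, adjusted p = 0.054), nor Slc7a4 without replicate 1 (adjusted p = 0.0699). Without replicate 1 the ratio of Slc43a2 fell to 1.42, under the size asked for. In that setting Slc43a3 and Slc7a2 became called (chi-square test, adjusted p = 0.0222 and 0.0329). Slc7a7 shares exon bases with Oxa1l and Slc7a4 with P2rx6, each on the opposite strand. The abundant genes Slc38a2, Slc1a4 and Slc38a7 were not called, with ratios of 1.01, 1.03 and 1.05. In Slc38, 2 of 7 genes tested varied, Slc38a1 and Slc38a10, and 0 by 1.5-fold. In Slc7, 8 of 9 varied and 6 of 9 by 1.5-fold. The shares of all genes tested were 65.7% and 18.3%, and the difference between the families was not tested.

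**Figure D4:**
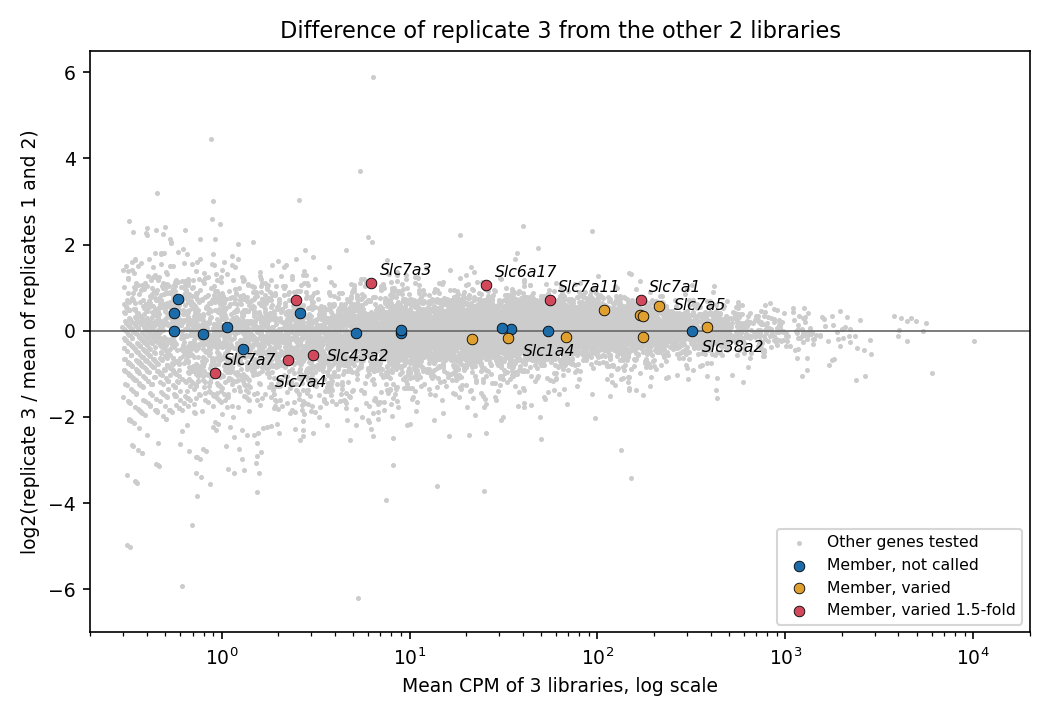
Each tested gene by its mean level in CPM on a log scale and the log2 ratio of replicate 3 to the mean of replicates 1 and 2, with the 31 transporter genes in colour by call and other genes in grey. Slc7a3, Slc6a17, Slc7a11 and Slc7a1 lie above 0, Slc7a7 below it and Slc38a2 and Slc1a4 on it.

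All 9 transporter genes listed as ATF4-induced were detected, beside 46.6% of all genes listed, but not all 9 varied between libraries. Of these, 6 (66.7%) varied, near the 65.7% of all genes tested. Replicate 3 was highest for 5 of them (Slc7a3, Slc7a11, Slc7a1, Slc7a5 and Slc3a2) and lowest for Slc1a5, beside 33.1% and 31.5% of all genes tested. By at least 1.5-fold 3 of the 9 (33.3%) varied, Slc7a3, Slc7a11 and Slc7a1, beside 18.3% of all genes tested. All 3 were highest in replicate 3, where the share of all genes tested was 7.4%. Whether these shares differ was not tested. The call of Slc1a5 was lost without replicate 1 (chi-square test, adjusted p = 0.123). Slc38a2, Slc1a4 and Slc6a9 were not called. The median log2 ratio of replicate 3 to the mean of the other 2 libraries was 0.34 over the 9 genes and −0.00017 over all genes tested. Atf4 itself stood at 286, 290.4 and 268 CPM, slightly lower in replicate 3. The gene of the ATF4-driven asparagine synthetase, Asns, gave 123, 123 and 127 CPM and was not called, and neither was Trib3 (12.7, 12.8 and 12.3 CPM). Ddit3, Cebpb and Sesn2 varied and were lowest in replicate 3, at ratios of 1.18, 1.34 and 1.18 between highest and lowest library. Trib3, Ddit3, Cebpb and Sesn2 were named after their values were seen. Whether ATF4 had a part in the differences of replicate 3 was not tested.

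To show what the promoters of these genes hold, RefSeq windows from 250 bases before to 50 bases after the start (GRCm38.p6) were searched for the ATF4-C/EBP composite element TGATGNAA on both strands. A window was given for 41 of the 59 members. Of the 16 detected members with one, 2 held the element, Slc7a11 and Slc1a4, beside 4.51% of all 27025 genes with a window. Slc7a7, split between libraries, held it too. Slc7a11 had 2 copies before its start, and Slc1a4 had 1 that reaches its start. The stretches are printed 5′ to 3′ on the gene's strand, with Asns for comparison and the element in capitals.
Slc7a11, chr3:50443614-50443688, minus strand: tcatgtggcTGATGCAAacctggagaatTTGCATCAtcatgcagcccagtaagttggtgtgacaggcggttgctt
Slc1a4, chr11:20332702-20332763, minus strand: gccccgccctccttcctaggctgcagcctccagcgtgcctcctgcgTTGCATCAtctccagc
Asns, chr6:7693210-7693269, minus strand: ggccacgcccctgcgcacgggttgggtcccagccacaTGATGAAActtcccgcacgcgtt
Of these 3 genes, Slc7a11 varied 1.5-fold between libraries, and Slc1a4 and Asns were not called. A match describes these letters alone. The antioxidant response element core TGACNNNGC, a motif chosen after the values were seen, was searched on both strands as well. It was found for 5 of the 16 detected members with a window (Slc36a1, Slc38a2, Slc6a9, Slc7a1 and Slc7a6), beside 14.0% of all genes. It was not found for Slc7a11. Outside the families, it was found for Asns and for Gclm, a gene of glutathione synthesis.

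The enzymes that use the imported amino acids were mostly present, with 10 of 12 detected, beside 46.6% of all genes listed. Of 11 tested, 6 (54.5%) varied, beside 65.7% of all genes tested, with replicate 3 highest for 3 and lowest for 3 (33.1% and 31.5% of all genes). The subunit genes of glutamate cysteine ligase, which joins glutamate to cysteine in the first step of glutathione synthesis, moved in the same direction as Slc7a11. Gclc gave 44.9, 42.5 and 75.997 CPM and Gclm 63.02, 61.1 and 93.2 CPM, and both were highest in replicate 3. Abundant enzymes included Got2 (357 ± 7.62 CPM), Asns (125 ± 2.29) and Got1 (92.4 ± 2.66). Gls2, an enzyme of glutamine breakdown known from liver, was low at 3.83, 3.14 and 2.02 CPM. Arg1 and Arg2, the arginases, lay below 1 CPM.

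**Figure D5:**
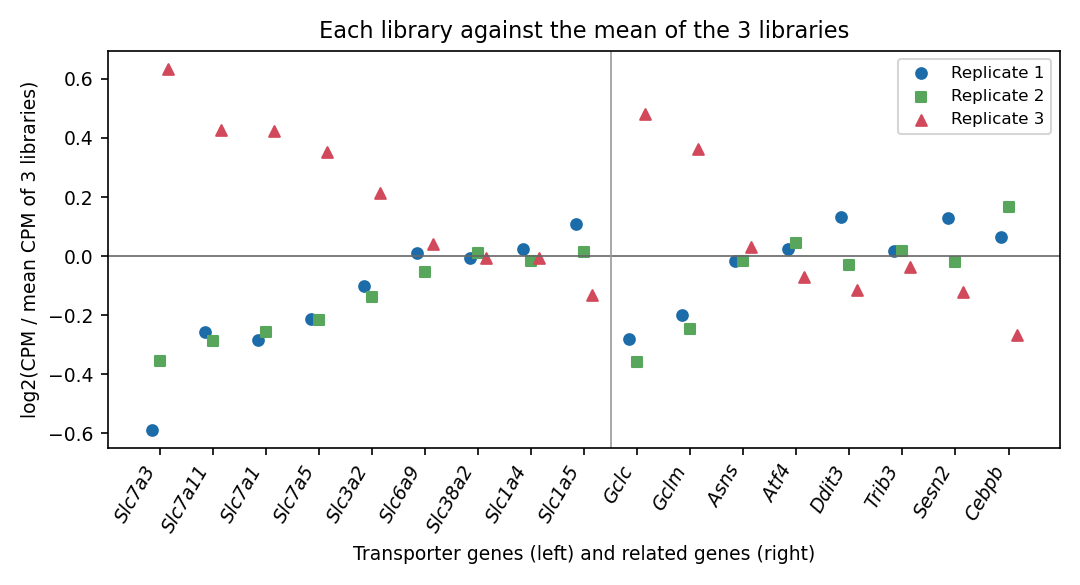
log2 of the CPM in each library over the mean of the 3 libraries, for the 9 ATF4-induced transporter genes on the left and 8 related genes, partly picked after their values were seen, on the right. Replicate 3 stands above the others for Slc7a3, Slc7a11, Slc7a1, Slc7a5, Slc3a2, Gclc and Gclm, and below them for Slc1a5, Atf4, Ddit3, Sesn2 and Cebpb.

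All 19 genes of amino acid sensing were detected, beside 46.6% of all genes listed. Of these, 13 (68.4%) varied, near the 65.7% of all genes tested, with replicate 3 highest for 4 and lowest for 9 (33.1% and 31.5% of all genes). Atf4, Rptor (109 ± 2.14 CPM), Rragc (96.2 ± 3.14) and Mtor (80.5 ± 4.50) were highest. By at least 1.5-fold 2 genes (10.5%) varied, beside 18.3% of all genes tested. Both were lowest in replicate 3, where the share of all genes tested was 10.7%. They were the Rag GTPase gene Rragd (8.36, 6.07 and 4.44 CPM) and Castor2, listed as Gatsl2 (29.2, 27.7 and 14.7 CPM).

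Among 22 transporters of amino acids from other families, 12 (54.5%) were detected, beside 46.6% of all genes listed. All 12 were tested, and 9 (75%) varied, beside 65.7% of all genes tested. The mitochondrial aspartate-glutamate carriers Slc25a12 (64.8 ± 1.49 CPM) and Slc25a13 (52.2 ± 3.50) and the mitochondrial carrier Slc25a44 (45.8 ± 3.13) were abundant in all 3 libraries. Slc17a8 encodes VGLUT3, which loads glutamate into synaptic vesicles, and stood at 23.9, 26.1 and 94.8 CPM. Replicate 3 was 3.81-fold above the mean of the others, so that Slc17a8 lay below these 3 carriers in replicates 1 and 2 and above them in replicate 3. The other vesicular carriers Slc17a6 and Slc17a7 had 8 and 5 counts and Slc32a1 had 0. The mitochondrial glutamate carrier Slc25a22 was highest in replicate 3 as well (25.5, 25.97 and 41.1 CPM). The lysosomal cystine exporter Ctns (19.05, 21.4 and 12.99 CPM) and the aromatic amino acid carrier Slc16a10 (12.9, 14.2 and 8.79 CPM) were lowest there. These 4 of 12 tested (33.3%) were the genes of the list that varied by at least 1.5-fold, beside 18.3% of all genes tested. Whether the shares differ was not tested.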

How the data were processed

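The values deposited by the authors are whole-number counts, listed by gene symbol for each library. Bowtie2 2.2.4, HTSeq and the mm10 build appear in the submitters' processing notes, without roles, options or a strand setting. The 5 summary lines, 15.2% to 17.1% of the reads, were left out. Symbols of all 59 members matched GENCODE M21 (GRCm38) directly for position and union exon length. CPM were computed over counts assigned to genes, with no normalization beyond that. Libraries were compared per gene with a chi-square test (2 degrees of freedom) after TMM scaling (edgeR 4.0.16, R 4.3.3), at a mean count of at least 10 and Benjamini-Hochberg adjusted p under 0.05. This test assumes counting noise only. The numbers of genes that differed between 2 libraries, given before the members, came from total counts without TMM scaling. Results without 1 replicate used TMM scaling of the remaining libraries. Gene pairs used log2 ratios per base with 0.5 counts added, and an exact sign-flip permutation test. Alternatives used DESeq2 1.42.0 size factors, other lengths, pseudocounts, filters and left-out libraries. On simulated counts, the test called 0% of 12752 genes without change. In a second simulation a small set of the 12742 genes tested was changed in 1 library. There it called 56% of genes changed 1.2-fold, 90.0% of those changed 1.5-fold and 0.45% of the 12542 unchanged genes. Python 3.11.15 and scipy 1.17.1 were used. Members could be named without a further rule, and lists outside the families name their 4 most abundant genes and those varying 1.5-fold. Ddit3, Cebpb, Sesn2, Trib3, Arg1, Arg2, Slc17a6, Slc17a7 and Slc32a1 were named outside this rule, after their values were seen. Results of 2 genes are not reported here. Members and lists were chosen with earlier results of these data known.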

Additional observations from a re-analysis of the deposited data

How the results depend on the processing

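The count of detected members was 26 with TMM or DESeq2 scaling, 29 at 0.5 CPM and 22 at 2 CPM, and 26 to 27 when 1 replicate was left out. Of 31 members, 17 varied. Other scalings and filters gave 16 or 17, and leaving out 1 replicate gave 0 to 17, with 0 without replicate 3. The count varying by 1.5-fold was 8, 7 to 9 under other scalings and filters, 11 at 1.3-fold, 3 at 2-fold, and 0 to 8 when 1 replicate was left out. The filters changed which members were tested, and 24 of the 31 had a mean count of 50 or more. With no filter the counts stayed at 17 and 8, but only 16 and 7 of these were calls of the main setting. DESeq2 scaling added Slc7a5, which lay just under 1.5-fold. Without replicate 1, Slc36a1, Slc1a5 and Slc7a4 were no longer called, Slc43a3 and Slc7a2 became called, and 6 of the 8 genes varying by 1.5-fold kept that call. Of 19 pairs, 17 exceeded the spread, and 16 to 18 did under the alternatives run. The log2 ratio of Slc3a2 to Slc7a5 turned to 0.056 with the longest transcript, and that of Slc1a3 to Slc1a2 to −0.52 without length correction; both follow from the lengths used. No paired analysis was possible because there is 1 group. Members under 10 counts on average were not tested, and low counts limit Slc7a2, Slc38a4 and Slc43a3.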
